A study of Mus musculus with 12 samples.

Results

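The 10 genes that mark thymic dendritic cells and were followed here with age are Itgax, Zbtb46, Flt3, Clec9a, Batf3, Irf8, Cd209a, Sirpa, Irf4 and Siglech. They were taken by name from a table of 22843 genes, summing the transcripts listed under each gene symbol, and all 10 were present. The libraries came from whole thymus of wild type male C57BL/6 mice aged 2 weeks (2W), 6 weeks (6W) and 3 months (3M), with 2 libraries per age described as biological replicates and 6 libraries in all. The study looked at thymus growth between 2W and 6W and at early decline between 6W and 3M, and long RNA was sequenced after ribosomal RNA depletion with strand kept. No cells were sorted, no mouse was treated, and age is the only difference between the groups that the labels give. Nothing was found in the labels on litters or shared extraction days, so the spread between the 2 libraries of an age is the only error that can be measured.

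Dendritic cells take up and present antigen, and in the thymus they show self antigens to developing T cells, which are then deleted or turned towards the regulatory fate. Conventional type 1 cells cross-present antigen and depend on the transcription factors Irf8 and Batf3, conventional type 2 cells carry Sirpa and depend on Irf4, and plasmacytoid cells are the producers of type I interferon and carry Siglech. Several of these genes are not private to dendritic cells: Irf8 and Irf4 are also transcribed in B cells, Sirpa in macrophages and Flt3 in early progenitors.

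Promoter windows, 250 bases before to 50 bases after a gene start, were available from RefSeq (GRCm38.p6) for 9 of the 10 genes, in 10 windows because Irf8 has 2. Of 32851 windows of 300 bases, 28.3% held the PU.1 core GAGGAA on either strand, and so did the windows of Batf3, Siglech and Irf4. The PU.1-IRF composite element (GGAA and GAAA with any 2 bases between them), to which Irf4 and Irf8 can bind together with PU.1, was in 2.72% of all windows and in that of Cd209a. The AP-1 element TGANTCA, also a site for Batf factors, was in 7.81% of all windows and in those of Itgax and Zbtb46. The Zbtb46 window (chr2:181424339-181424638, minus strand) lies at a start inside the gene, which spans 181371009 to 181493262. The interferon-stimulated element (GAAA repeated after any 2 bases) was in 3.44% of all windows and in 0 of the 10. The composite element and the interferon-stimulated element can overlap, and a match is a description of letters only. The windows of Cd209a (chr8:3748935-3749234, minus strand) and Itgax (chr7:128129300-128129599, plus strand), which had the largest fitted increases between 2W and 6W past the test, and of Siglech (chr7:55767934-55768233, plus strand), the plasmacytoid gene, are shown 5′ to 3′. Capitals mark the composite element read on the other strand in Cd209a, the AP-1 element in Itgax and the PU.1 core read on the other strand in Siglech.
Cd209a: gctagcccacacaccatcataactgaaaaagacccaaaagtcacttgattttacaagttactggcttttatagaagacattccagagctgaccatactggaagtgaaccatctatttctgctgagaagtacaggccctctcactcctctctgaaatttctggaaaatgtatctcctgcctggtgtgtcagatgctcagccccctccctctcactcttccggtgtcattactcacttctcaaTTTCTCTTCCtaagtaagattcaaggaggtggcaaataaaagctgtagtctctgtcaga
Itgax: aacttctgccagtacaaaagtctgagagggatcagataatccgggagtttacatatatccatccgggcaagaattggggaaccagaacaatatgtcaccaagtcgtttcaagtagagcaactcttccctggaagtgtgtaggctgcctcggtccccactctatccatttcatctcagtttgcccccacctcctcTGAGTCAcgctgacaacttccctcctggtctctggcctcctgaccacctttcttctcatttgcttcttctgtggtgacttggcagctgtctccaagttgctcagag
Siglech: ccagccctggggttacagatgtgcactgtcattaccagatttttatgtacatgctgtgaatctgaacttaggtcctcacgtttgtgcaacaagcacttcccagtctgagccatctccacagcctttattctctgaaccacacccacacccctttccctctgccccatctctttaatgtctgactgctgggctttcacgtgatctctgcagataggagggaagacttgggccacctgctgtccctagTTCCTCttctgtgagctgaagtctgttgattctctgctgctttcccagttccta

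The libraries held 16519753 to 22553481 estimated counts, which sets the precision for the rarest of these genes: Cd209a and Batf3 stood at 7 to 14 counts in the 2W libraries. Levels are given as CPM, the normalised count per 1000000 counts with the library size scaled by TMM, and, where genes are compared with each other, as FPKM, which also divides by length. Ranks of all genes correlated at 0.983 to 0.993 between libraries of the same age and at 0.968 to 0.988 between ages. The tissue label was met, since 12 thymocyte genes summed to 16100 to 21600 CPM and Rag1, Cd4 and Cd8a were detected in every library. The first principal component (38.6% of the variance) put both 2W libraries apart from the others, and the second (24%) had 3M replicate 1 at one end and 6W replicate 2 at the other. Of 14805 genes tested, all 10 dendritic cell genes passed the filter on low counts.

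Between 2W and 6W the dendritic cell genes stood higher, most of all Cd209a and Itgax. In all 10 genes both 6W libraries lay above both 2W libraries, which was the case for 28.0% of all genes tested. Itgax rose 2.62-fold and Cd209a 6.87-fold by edgeR's quasi-likelihood test with Benjamini-Hochberg adjustment. These were 2 of 10 genes, against 1.47% of all genes called higher. An unadjusted p under 0.05 was reached by 9 of 10 genes (18.9% of all genes in either direction), with Siglech the exception. The looser threshold, a log2 fold change above 1 in size together with an unadjusted p under 0.05, was passed by Itgax, Clec9a, Batf3 and Cd209a, 4 of 10 against 4.48% of all genes. The median log2 fold change was 0.75 for the 10 genes and -0.01 for all genes. In whole tissue, more cells of a type and more RNA per cell cannot be told apart, nor can fewer cells and less RNA per cell. With any 1 of the 2W or 6W libraries left out, 0 of the 10 genes were called, but calls over all genes also fell from 257 to between 0 and 2, and the fitted values stayed at 1.28 to 1.49 for Itgax and 2.47 to 3.22 for Cd209a. With either 3M library left out of the shared fit, 5 genes (Itgax, Flt3, Irf8, Cd209a and Sirpa) were called, and 658 and 615 of all genes.

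**Figure D1:**
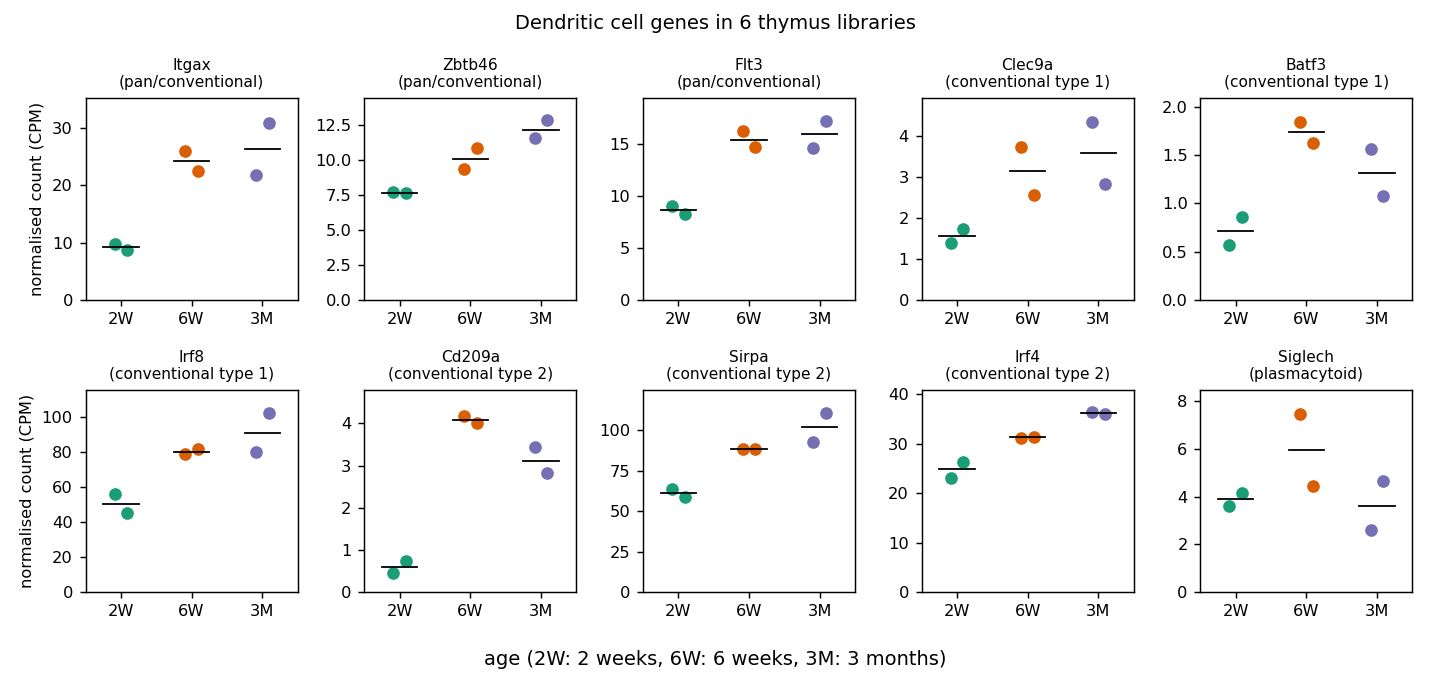
Level of each dendritic cell gene (normalised count, CPM, linear axes from 0) in each of the 6 thymus libraries at 2W, 6W and 3M; each point is 1 library and each bar the mean of the 2 libraries of an age. The 2W points lie below the 6W points in all 10 panels, and the 3M points lie on both sides of the 6W mean in Itgax, Flt3, Clec9a and Irf8.

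Of the genes shared by conventional dendritic cells, Itgax encodes CD11c, the integrin chain by which these cells are usually recognised. Its level was 9.80 and 8.77 CPM in the 2W libraries, 26.1 and 22.5 CPM at 6W and 21.8 and 31.0 CPM at 3M. The 2W libraries lay apart and below, and the ranges of 6W and 3M overlapped. The means were 9.28 ± 0.73 CPM at 2W, 24.3 ± 2.59 CPM at 6W and 26.4 ± 6.52 CPM at 3M (SD, n = 2 each). The log2 fold change was 1.39 at 6W against 2W (SE 0.20, 95% interval 0.90 to 1.87, edgeR adjusted p = 0.0363) and 1.51 at 3M against 2W (SE 0.20, 1.02 to 2.00, edgeR adjusted p = 0.0105). Between 6W and 3M it was 0.12, with an interval of -0.34 to 0.58. With symbols taken exactly as written the call at 6W against 2W was lost (edgeR adjusted p = 0.0508). It was also lost with a term for replicate number (edgeR adjusted p = 0.0877) and on unfiltered log2(FPKM + 0.1) (limma adjusted p = 0.0785). The call was kept with DESeq2, other scalings, unfiltered counts and limma with a filter.

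Flt3, the receptor for the growth factor on which dendritic cells depend, had 9.04 and 8.22 CPM at 2W, 16.2 and 14.7 CPM at 6W and 14.6 and 17.2 CPM at 3M. Its 2W libraries again lay below all others, and 6W and 3M overlapped. At 3M against 2W it rose by a log2 fold change of 0.88 (SE 0.16, edgeR adjusted p = 0.0209), and at 6W against 2W the value was 0.84 (SE 0.16, 95% interval 0.46 to 1.22) with an edgeR adjusted p of 0.0603. The ligand gene Flt3l, named here after its values were seen, had 4.80 to 7.02 CPM over the 6 libraries, with all 3 ages overlapping and a log2 fold change of 0.01 (SE 0.24) at 6W against 2W.

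Zbtb46 encodes a transcription factor that sets conventional dendritic cells apart from macrophages and plasmacytoid cells. Its level was 7.71 and 7.66 CPM at 2W, 9.35 and 10.9 CPM at 6W and 11.6 and 12.9 CPM at 3M, so that no library of one age overlapped with another age. The log2 fold changes were 0.40 (SE 0.17) at 6W against 2W, 0.27 (SE 0.16) at 3M against 6W and 0.67 (SE 0.17, 95% interval 0.27 to 1.07) at 3M against 2W. The last had an edgeR adjusted p of 0.0501 and so missed the threshold narrowly, and of 17 fits 1 called it, with total counts as the only scaling (edgeR adjusted p = 0.0373), while adjusted p reached 0.206 in the others.

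Among the type 1 genes, Irf8, the factor required for this lineage, was at 55.9 and 45.2 CPM at 2W, 78.9 and 81.6 CPM at 6W and 80.0 and 102 CPM at 3M. The 2W libraries lay below the rest, and the 6W range reached into that of 3M. Irf8 rose at 3M against 2W by a log2 fold change of 0.85 (SE 0.16, edgeR adjusted p = 0.0239). At 6W against 2W the value was 0.67 (SE 0.16, 95% interval 0.28 to 1.05, edgeR adjusted p = 0.104).

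Clec9a, a receptor for the actin of dead cells, was rare, with 22 and 28 counts at 2W, 77 and 58 at 6W and 72 and 63 at 3M. In CPM these were 1.39 and 1.72, then 3.73 and 2.56, then 4.33 and 2.82. The 2W libraries were the lowest, and the 2 older ages overlapped. The log2 fold change was 1.01 (SE 0.36) at 6W against 2W and 1.19 (SE 0.36, 95% interval 0.32 to 2.07) at 3M against 2W, with edgeR adjusted p of 0.215 and 0.0889.

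Batf3, the partner factor of this lineage, had 9 and 14 counts at 2W, 38 and 37 at 6W and 26 and 24 at 3M. Its level of 0.569 and 0.858 CPM at 2W stood below 1.84 and 1.63 CPM at 6W and 1.56 and 1.08 CPM at 3M, and the 3M libraries also lay below those of 6W. The log2 fold changes of 1.27 (SE 0.43), -0.40 (SE 0.40) and 0.87 (SE 0.43) for 6W against 2W, 3M against 6W and 3M against 2W had edgeR adjusted p of 0.193, 0.677 and 0.252.

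Of the type 2 genes, Cd209a, a C-type lectin of the DC-SIGN family, had the largest fold change of the 10 genes at 6W against 2W and at 3M against 2W. It counted 7 and 12 at 2W, 86 and 91 at 6W and 57 and 63 at 3M, or 0.443 and 0.736, 4.17 and 4.02, and 3.43 and 2.82 CPM. No 2 ages overlapped, with 6W the highest. The log2 fold change was 2.78 at 6W against 2W (SE 0.35, 95% interval 1.93 to 3.63, edgeR adjusted p = 0.028) and 2.39 at 3M against 2W (SE 0.36, 1.54 to 3.24, edgeR adjusted p = 0.0129). The lower 3M level gave -0.39 against 6W (SE 0.31, interval -1.12 to 0.34, edgeR adjusted p = 0.585), within the error.

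Sirpa, the inhibitory receptor that binds CD47, was at 63.8 and 58.6 CPM at 2W, 88.5 and 88.8 CPM at 6W and 92.6 and 111 CPM at 3M. Each age lay above the one before with no overlap. It rose at 3M against 2W (log2 fold change 0.73, SE 0.13, edgeR adjusted p = 0.0187), and the value at 6W against 2W was 0.53 (SE 0.13, 95% interval 0.23 to 0.84, edgeR adjusted p = 0.0981).

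Irf4, the factor required for type 2 cells, was at 23.1 and 26.4 CPM at 2W, 31.1 and 31.4 CPM at 6W and 36.5 and 36.1 CPM at 3M. These ages did not overlap either, and the 2 libraries of 6W and of 3M lay close together (SD 0.216 and 0.284 CPM). Irf4 rose at 3M against 2W by 0.55 on the log2 scale (SE 0.12, edgeR adjusted p = 0.0309), the smallest rise among the genes called. At 6W against 2W it stood at 0.34 (SE 0.12, edgeR adjusted p = 0.20).

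Siglech, the plasmacytoid lectin, did not pass the test in any comparison. It had 57 and 68 counts at 2W, 154 and 101 at 6W and 43 and 104 at 3M, which gave 3.60 and 4.17, 7.46 and 4.46, and 2.59 and 4.66 CPM. The 2 libraries of 6W differed by more than those of 2W, and the 3M range took in the whole range of 2W. The log2 fold changes were 0.61 at 6W against 2W (SE 0.38, 95% interval -0.28 to 1.51), -0.71 at 3M against 6W (SE 0.37, -1.60 to 0.19) and -0.09 at 3M against 2W (SE 0.38, -1.0 to 0.82). Changes as large as those of Itgax between 2W and 6W lie within the first of these intervals, so at this depth and with 2 libraries per age a change in Siglech could not be settled. Over 17 fits the log2 fold changes ran from 0.20 to 0.94, from -1.25 to -0.29 and from -0.62 to 0.29 in the same order.

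Between 6W and 3M none of the 10 genes passed the test. With edgeR's quasi-likelihood test 0 of 10 had an adjusted p under 0.05 and 0 an unadjusted p under 0.05, and limma called 0 of 10. DESeq2 called 0 of the 7 genes to which it gave an adjusted p here, and 334 of all 11909 with one. Of all genes, edgeR called 1 (0.00675%), and 14.3% had an unadjusted p under 0.05. Zbtb46, Sirpa and Irf4 were higher at 3M in both libraries (25.9% of all genes), and Batf3 and Cd209a lower in both (23.3% of all genes). The log2 fold changes ran from -0.71 in Siglech to 0.27 in Zbtb46, with a median of 0.15 against 0.02 for all genes. For the more abundant genes the intervals were narrow, at -0.20 to 0.56 for Irf8, -0.10 to 0.50 for Sirpa and -0.06 to 0.49 for Irf4. For Clec9a and Batf3 they were wide, at -0.65 to 1.01 and -1.37 to 0.56. The fitted direction changed sign in Itgax, Flt3, Clec9a and Irf8 when 1 library was left out.

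At 3M against 2W, 6 of the 10 genes rose: Itgax, Flt3, Irf8, Cd209a, Sirpa and Irf4, against 7.91% of all genes called higher. In 9 genes both 3M libraries lay above both 2W libraries (27.7% of all genes), Siglech being the exception. An unadjusted p under 0.05 was reached by 8 genes (27.3% of all genes in either direction), and the looser threshold was passed by 3 (Itgax, Clec9a and Cd209a, against 7.67% of all genes). The median log2 fold change was 0.86, and -0.03 over all genes. The count was 0 without 2W replicate 1, 1 (Cd209a) without 2W replicate 2, 2 (Itgax and Cd209a) without either 6W library, 5 without 3M replicate 1 and 3 (Itgax, Cd209a and Sirpa) without 3M replicate 2. Calls over all genes, 1630 in the full fit, were 239, 289, 567, 572, 1741 and 1376 in these fits with fewer libraries. A fit of only the 4 libraries compared called 2 (Itgax and Cd209a) and 663 of all genes, and over 17 fits Flt3 was called in 9 and Irf4 in 8. All 6 genes kept their direction in the fits with 1 library left out, at 1.20 to 1.76 for Itgax and 0.56 to 0.88 for Sirpa. This comparison shares its 2W libraries with that of 6W against 2W and its 3M libraries with that of 3M against 6W, so the values are given side by side and not as separate evidence. An exact permutation test on 2 libraries against 2 cannot give a two-sided p below 0.333, and single genes were therefore judged only in the fit over all genes.

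**Figure D2:**
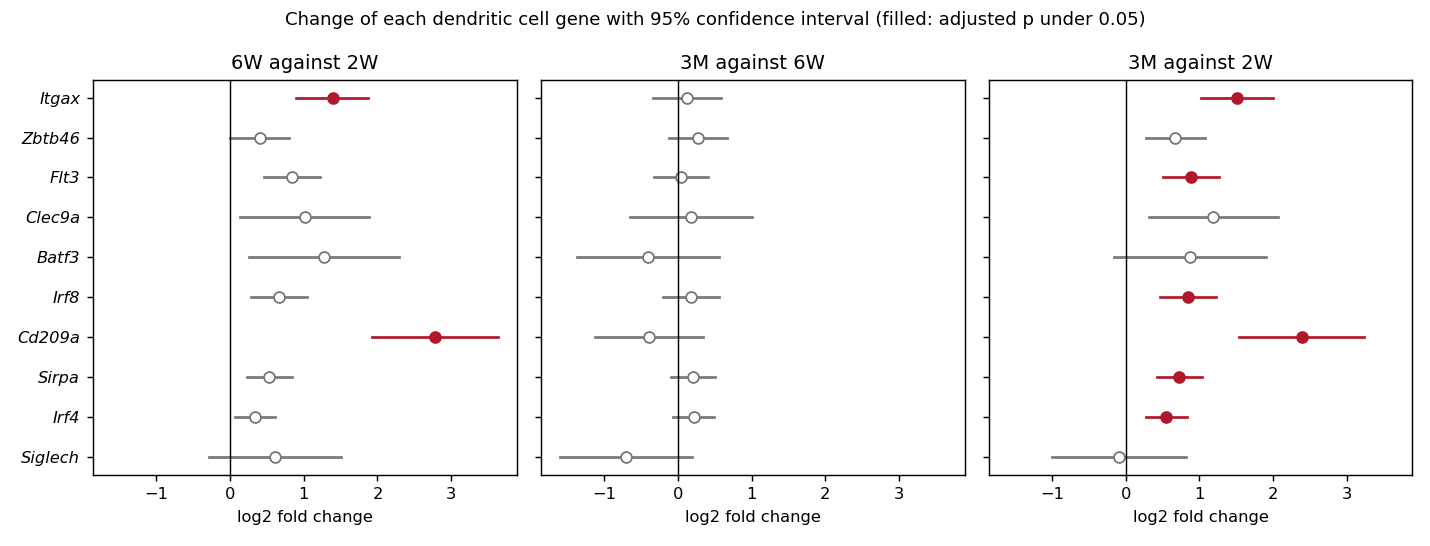
Log2 fold change (x axis) of each dendritic cell gene (y axis) with its 95% confidence interval in the 3 comparisons between ages; red filled points have an edgeR adjusted p under 0.05. Red points are Itgax and Cd209a at 6W against 2W, none at 3M against 6W, and 6 genes at 3M against 2W.

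Compared per length, Irf8 and Sirpa were the most abundant of the 10 genes at each age. At 6W the mean was 26.67 FPKM for Irf8 and 24.14 FPKM for Sirpa, followed by 6.20 FPKM for Irf4, 5.88 FPKM for Itgax and 4.0 FPKM for Flt3. Siglech (3.22 FPKM), Cd209a (2.66 FPKM), Zbtb46 (2.45 FPKM), Batf3 (2.02 FPKM) and Clec9a (1.33 FPKM) came after. Neighbours whose libraries overlapped at 6W, and whose order is therefore not set, were Irf4 and Itgax, Flt3 and Siglech, Siglech and Cd209a, and Cd209a and Zbtb46.

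The order of the rarer genes differed at the other ages. At 2W Cd209a (0.42 FPKM) and Clec9a (0.50 FPKM) had the lowest means, and their libraries overlapped, and at 6W and 3M Cd209a was the seventh by its mean. Siglech was the seventh at 2W with 1.80 FPKM, the sixth at 6W and the eighth at 3M with 1.69 FPKM. At 2W Sirpa (15.99 FPKM) and Irf8 (15.87 FPKM) overlapped, as did Flt3, Itgax, Zbtb46 and Siglech in turn (2.10, 2.08, 1.98 and 1.80 FPKM). At 3M the overlapping neighbours were Irf8 and Sirpa, Irf4 and Itgax, and Cd209a, Siglech, Batf3 and Clec9a in turn.

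The gene sums hid transcripts that moved differently, as in Siglech and Batf3. Siglech was split over 7 transcripts with counts. ENSMUST00000171077 had 19.67 and 26.05 estimated counts at 2W, 25.49 and 18.72 at 6W and 1.61 and 0 at 3M, while the main transcript ENSMUST00000060416 had 28.31 and 30.67, 82.22 and 40.35, and 41.0 and 56.14. The former made up 34.4% and 38.4% of the gene at 2W, 16.5% and 18.5% at 6W, and 3.8% and 0% at 3M. These ranges did not overlap, and the transcripts are named after their values were seen. For Batf3 the annotated transcript ENSMUST00000027943 had 3.4 and 0 counts at 2W, 31.55 and 32.45 at 6W and 26.0 and 24.0 at 3M. The rest of the Batf3 counts, including all 14 of 2W replicate 2, were given to a transcript assembled from the data, which was at 0 in both 3M libraries. Shares per transcript are estimates of a quantification program from reads that transcripts share, and they were not tested.

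In Irf4 and Sirpa the split between transcripts varied widely within an age. ENSMUST00000021784 took 80.9% and 53.8% of the Irf4 counts at 2W, 29.3% and 67.4% at 6W and 45.8% and 67.6% at 3M. ENSMUST00000179001 took 40.2% and 5.1% of the Sirpa counts in the 2W libraries alone. The Sirpa sums of the same libraries were 63.8 and 58.6 CPM. Itgax, Irf8 and Clec9a were carried by 1 main transcript each, and Flt3 was listed with 1 transcript.

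**Figure D3:**
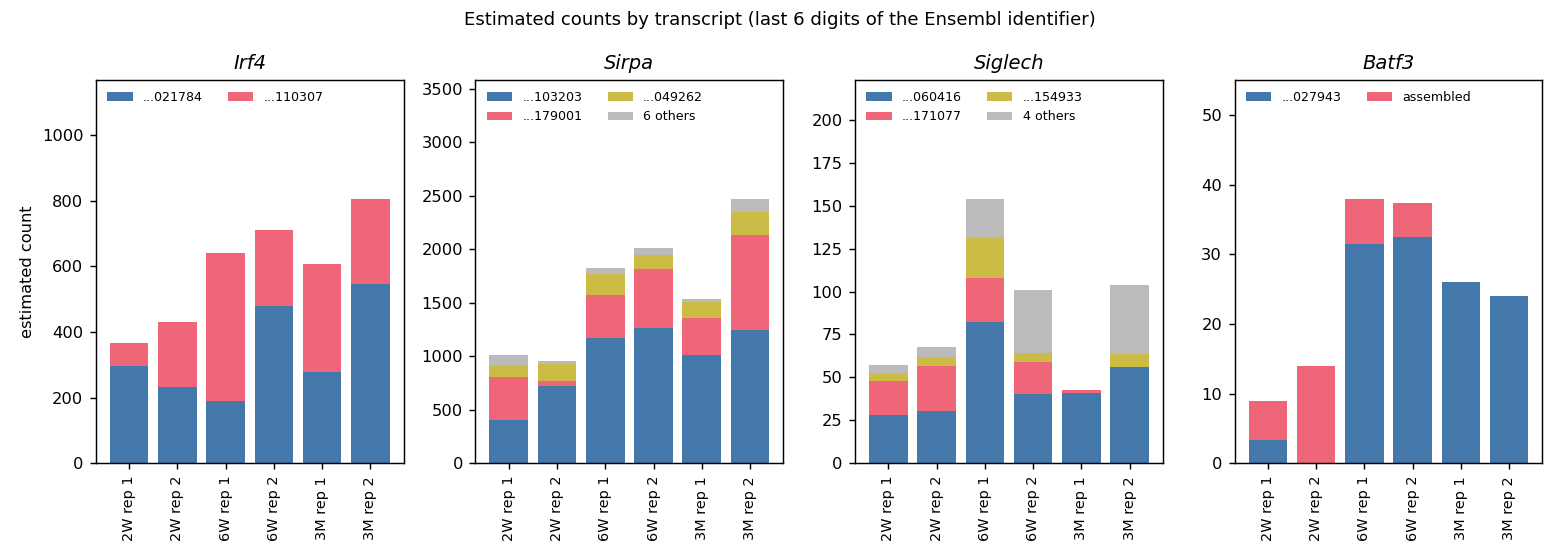
Estimated counts per library (y axis, linear from 0) of Irf4, Sirpa, Siglech and Batf3, stacked by transcript, for the 2 libraries of each age (x axis). In Siglech the transcript ENSMUST00000171077 is at 1.61 and 0 counts in the 3M libraries, and in Batf3 the assembled transcript makes up all 14 counts of 2W replicate 2.

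The 10 genes were also compared in pattern over the 6 libraries, as Pearson's correlation of log2 CPM. This is a description with no p, since the libraries form age groups and share depth and scaling between genes. The median over 45 pairs was 0.837. Itgax and Flt3 were the most alike (0.998). Every gene but Siglech correlated at 0.81 (Batf3) to 0.98 (Itgax and Flt3) with the mean of the others, and Siglech at 0.18. The 5 genes of the whole table closest to the mean pattern were Rhoc (0.999), Lyn, Anpep and Svep1 (0.998 each) and P2rx6 (0.997), and 370 of 14795 genes were above 0.95. Lyn, a kinase of myeloid and B cells, had 21.1 and 21.7 CPM at 2W, 39.8 and 36.6 CPM at 6W and 39.1 and 42.3 CPM at 3M.

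**Figure D4:**
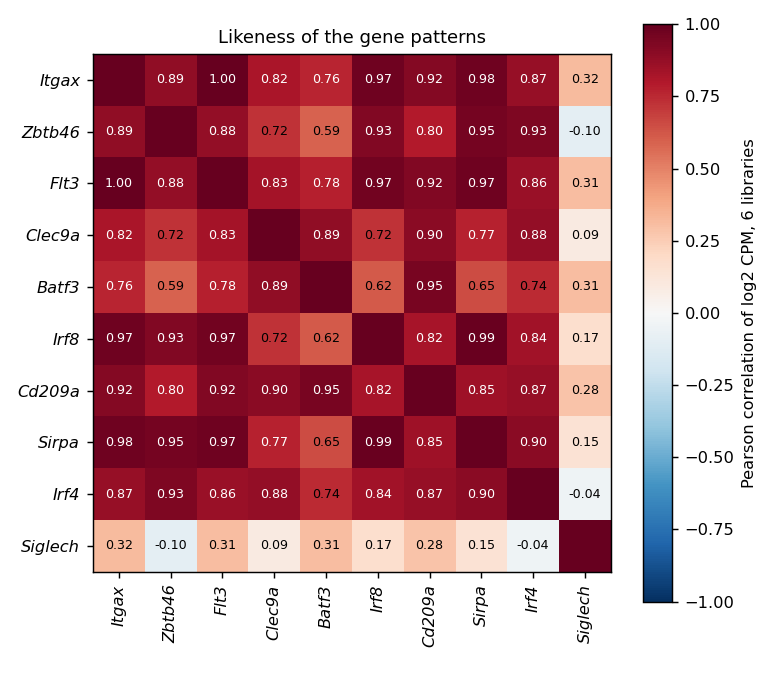
Pearson correlation of log2 CPM over the 6 libraries for each pair of the 10 dendritic cell genes (both axes), coloured from -1 to 1. The pairs of Siglech are the pale row and column, and the pair of Itgax and Flt3 is at 0.998.

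Of 10 other genes of the type 1 lineage, 2 rose at 6W against 2W (1.47% of all genes were called higher), Naaa, a lysosomal amidase (log2 fold change 1.35, edgeR adjusted p = 0.0263), and Tlr11, a receptor for profilin of parasites (2.30, edgeR adjusted p = 0.043). At 3M against 2W 6 of 10 rose (7.91% of all genes were called higher), namely Xcr1 (1.14), Wdfy4 (1.03), Naaa (1.64), Gcsam (1.44), Tlr11 (2.83) and Id2 (0.90) on the log2 scale. Xcr1, the receptor for the chemokine that draws these cells into the medulla, was at 5.56 and 3.37 CPM at 2W, 9.11 and 10.1 CPM at 6W and 10.5 and 9.27 CPM at 3M. The median log2 fold changes of the list were 0.69 at 6W against 2W, 0.31 at 3M against 6W and 1.06 at 3M against 2W.

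Of 9 other type 2 genes tested, 1 rose at 6W (all genes 1.47%), the lectin Mgl2 (log2 fold change 1.92), and 3 rose at 3M against 2W (all genes 7.91%) by edgeR's test, Mgl2 (2.05), the transcription factor Klf4 (1.46) and the receptor Csf1r (1.09), which macrophages carry as well. The medians were 0.86, -0.03 and 1.08 for 6W against 2W, 3M against 6W and 3M against 2W. In the last comparison 7 of the 9 were above 0, and Itgam (-0.11) and Esam (-0.04) were below.

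Other plasmacytoid genes did not share 1 pattern. Of 14 tested, 2 rose at 6W (all genes 1.47%), the transcription factor Spib (log2 fold change 0.74) and Ly6c2 (1.09). By 3M, compared with 2W, 5 rose (all genes 7.91%), namely Bst2 (0.89), Tlr7 (1.17), Tlr9 (0.72), Irf7 (1.0) and Ly6c2 (1.74), and Ccr9, a chemokine receptor that thymocytes carry too, fell by 0.50 (3.10% of all genes were called lower). Most of these genes are also transcribed in other cells: B cells carry Spib, Tlr7 and Tlr9, and monocytes carry Ly6c2. The medians were 0.63, -0.02 and 0.39. Against 2W, 12 of the 14 were above 0 at 6W and 11 at 3M. Tcf4 was below 0 in both (-0.32 and -0.21) and not called. Both 3M libraries lay below both 6W libraries in 5 of the 14 (23.3% of all genes) and above them in 3 (25.9% of all genes).

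Of 16 genes of mature dendritic cells, 1 rose at 6W (all genes 1.47%), the chemokine Ccl5 (log2 fold change 1.14), and 3 rose at 3M against 2W, Cd86 (0.89), Il12b (0.95) and Ccl5 (1.13), where 7.91% of all genes were called higher. The medians were 0.42, -0.05 and 0.26. At 3M against 2W the values ran from -0.68 in Ccl22 (not called) to 1.13 in Ccl5, with 9 of the 16 above 0. Among 20 genes for growth and attraction of dendritic cells, 3 rose at 6W (all genes 1.47%), the chemokine Ccl8 (2.22), the fractalkine receptor Cx3cr1 (1.74) and Cxcl16 (0.94). At 3M against 2W 5 rose (all genes 7.91%), those 3 (2.5, 2.20 and 1.13) together with Csf2rb2 (0.82) and Cx3cl1 (1.23). The medians were 0.52, 0.06 and 0.48.

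Genes for MHC class II and its peptide loading, the display machinery of these cells, had both 6W libraries above both 2W libraries in 11 of 11 tested (28.0% of all genes). At 6W 5 of 11 rose (all genes 1.47%), H2-Aa (log2 fold change 0.80), H2-Eb1 (0.90), H2-DMb1 (0.98), H2-Ob (1.1) and the protease gene Ctss (1.24), and at 3M against 2W 10 of 11 (all genes 7.91%), H2-Oa being the one that did not pass. The other 5 called at 3M against 2W were H2-Ab1 (0.90), Cd74 (0.88), Ciita (0.59), H2-DMa (0.70) and H2-DMb2 (0.72). The list medians were 0.80, 0.16 and 0.90, and the 2 counts of calls were not tested against each other. Their summed level was 1290 to 1540 CPM at 2W, 2550 to 2590 CPM at 6W and 2370 to 3080 CPM at 3M. B cells, macrophages and thymic epithelium also carry these genes. In none of these lists was a gene called between 6W and 3M by edgeR's test, while the number with an unadjusted p under 0.05 was 2 for type 1, 0 for type 2, 3 for plasmacytoid, 4 for mature cells, 1 for growth and attraction and 1 for MHC class II, against 14.3% of all genes.

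**Figure D5:**
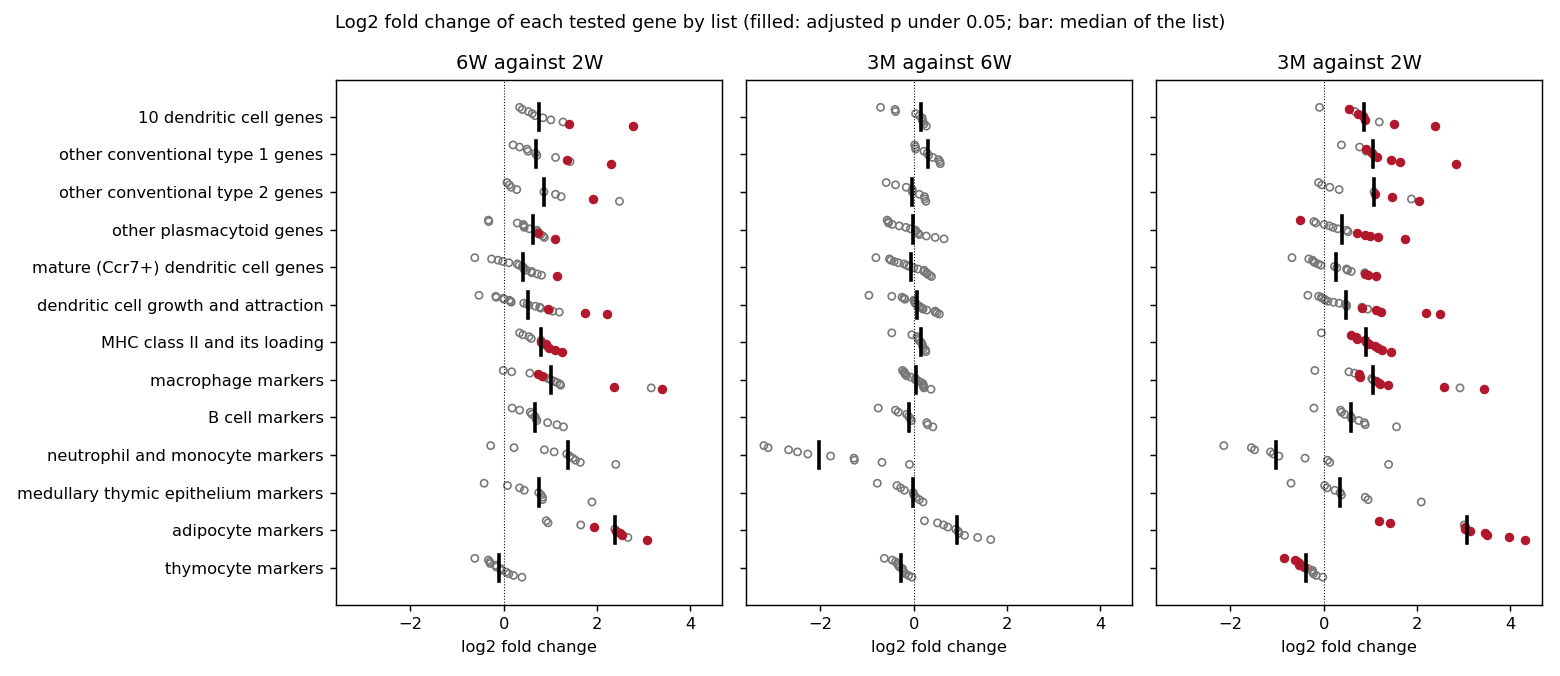
Log2 fold change (x axis) of each tested gene in the 10 dendritic cell genes and 12 other lists (y axis) in the 3 comparisons; red filled points have an edgeR adjusted p under 0.05 and vertical bars are list medians. The medians of the 10 dendritic cell genes are 0.75, 0.15 and 0.86, and those of the macrophage list 1.01, 0.04 and 1.05.

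Markers of other cell types moved in the same libraries, and their part in the result was not tested. The 10 dendritic cell genes summed to 162 to 175 CPM at 2W, 263 to 267 CPM at 6W and 269 to 321 CPM at 3M. The largest parts of this sum were Sirpa, Irf8 and Irf4 (means of 88.6, 80.2 and 31.3 CPM at 6W), which other cells also transcribe. For 15 macrophage markers the sums were 457 to 487, 793 to 872 and 795 to 958 CPM. At 6W 4 of the 15 rose (all genes 1.47%), with log2 fold changes of 3.40 for Cd163, 0.82 for Mrc1, 0.74 for Vcam1 and 2.37 for Cd5l. In the comparison of 3M with 2W 9 rose (all genes 7.91%), these 4 (3.43, 0.75, 0.78 and 2.58) and Adgre1 (0.76), C1qa (1.19), C1qb (1.21), Mertk (1.11) and Fcgr1 (1.37). No macrophage or B cell marker was at 0 in any library.

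For 10 B cell markers the sums were 64.4 to 65.3, 89.9 to 102 and 78.3 to 96.2 CPM, with 0 called in any comparison by edgeR's test. The nearest to the threshold were Cr2 (log2 fold change 1.56, edgeR adjusted p = 0.0501) and Bank1 (0.87, edgeR adjusted p = 0.0565) at 3M against 2W, and 6 of the 10 had an unadjusted p under 0.05 at 6W against 2W (18.9% of all genes). The medullary epithelium list summed to 141 to 176, 236 to 238 and 192 to 289 CPM with 0 of 9 tested called and 2 at an unadjusted p under 0.05 at 6W against 2W (18.9% of all genes), led by Trpm5 (2.09) and Krt5 (0.95) at 3M against 2W with edgeR adjusted p of 0.0501 and 0.0588. Thymocyte genes went the other way, since 5 of 12 fell at 3M against 2W (3.10% of all genes were called lower), namely Rag1 (by 0.43 on the log2 scale), Ptcra (-0.85), Cd8a (-0.52), Cd4 (-0.53) and Bcl11b (-0.61). As CPM are shares of a library, a lower share of thymocyte RNA and a higher share of RNA of other cells cannot be told apart here.

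A search of 6300 circRNAs counted in the same tissue, 6082 of them with a named source gene, found 0 from any of the 10 genes. For a gene with no listed circRNA this is a statement about the list, and no limit on its level was set.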

How the data were processed

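Ribosomal RNA-depleted, strand-specific long RNA of 6 thymus libraries was analysed. The authors deposited estimated counts per transcript, of which 83.4% to 84.7% above 0 are not whole (over 1e-09 above a whole number), and FPKM; the labels list Bowtie 0.12.2 and mm8 with no role, and the quantification program is not given in the sources used here. Transcripts were summed by gene symbol, joining spellings that differ only in case (665 genes; 1 spelling for each dendritic cell gene). The 372 transcripts without a symbol, 0.699% to 1.195% of counts, were left out. The deposited estimated counts were rounded and tested with edgeR 4.0.16 (R 4.3.3; TMM, filterByExpr by age, quasi-likelihood F test, prior count 0.125) in 1 fit over 3 ages, with Benjamini-Hochberg adjustment over 14805 genes and a call at an adjusted p under 0.05. The looser threshold is that of the study's methods. The deposited FPKM were summed per gene for levels per length. Steps were tested on simulated data. Named are the 10 genes, every listed gene called, otherwise the 2 of a list with the smallest p, and the 5 genes most alike in pattern. Flt3l, H2-Oa, Tcf4, Ccl22, Itgam, Esam, Ly6g, Elane, Csf3r and single transcripts were named after their values were seen. Members and lists were chosen with earlier results of these data known. Alternatives used DESeq2 1.42.0 and limma 3.58.1, other scalings and filters, a replicate block and each library left out. The miRNA libraries were not used here.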

Additional observations from a re-analysis of the deposited data

How the results depend on the processing

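All 10 genes stayed higher at 6W than at 2W, and 9 (all but Siglech) at 3M than at 2W, in each of the alternatives run. At 6W against 2W the number called, 2 in the report, was 5 with DESeq2 and in a fit of only the 4 libraries compared, and 1 with symbols taken exactly as written (Itgax at an edgeR adjusted p of 0.0508) or with limma on log2(FPKM + 0.1) and no filter. At 3M against 2W it was 2 in place of 6 with only the 4 libraries. Leaving out 1 library gave 0 to 5 calls at 6W against 2W and 0 to 5 at 3M against 2W. At 3M against 6W it was 0 throughout, of the 7 genes with an adjusted p in DESeq2 and of all 10 in the other alternatives.

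Over all genes, 257, 1 and 1630 were called at 6W against 2W, 3M against 6W and 3M against 2W. DESeq2 called 834 and 334 in the first and second. Total counts as the only scaling gave 395 in the first, and no filter 467 and 19 in the first and second. The 4 libraries alone gave 662, 0 and 663, exact symbols 124 and 0 in the first and second. Limma gave 395 and 0 with 0.1 added, 3 in the second with 1 added, and 97, 0 and 1062 with 0.1 and no filter. Leaving out 1 library gave 0 to 658, 0 to 11 and 239 to 1741.

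Replicate numbers did not pair the libraries (correlations of deviations -0.037, -0.091 and 0.309). With a replicate block, 0, 0 and 2 of the 10 genes (Itgax and Cd209a) and 5, 0 and 742 of all genes were called in the 3 comparisons.

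Leaving out 1 library turned the sign of 5 values, none of them called. The log2 fold change at 3M against 6W then ran from -0.21 to 0.36 in Itgax, from -0.14 (-0.03 without 6W replicate 2) to 0.17 in Flt3, from -0.14 (-0.07 without 6W replicate 2) to 0.48 in Clec9a and from -0.06 to 0.35 in Irf8, and at 3M against 2W from -0.62 to 0.29 (0.03 without 2W replicate 2) in Siglech. The causes were not tested. Cd209a and Batf3 rest on 7 to 14 counts in each 2W library.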

Other observations

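Markers of cells outside the dendritic lineage gave the widest spread between ages in the lists examined. Adipocyte genes summed to 72.6 to 73.1 CPM at 2W, 262 to 273 CPM at 6W and 313 to 641 CPM at 3M. By edgeR's quasi-likelihood test 5 of 10 rose at 6W against 2W and 9 of 10 at 3M against 2W, with median log2 fold changes of 2.39 and 3.08 (1.47% and 7.91% of all genes were called higher). Called at both were Adipoq (2.5 and 3.46), Cidec (2.40 and 3.13), Cfd (3.06 and 3.96), Plin4 (1.93 and 3.02) and Car3 (2.54 and 3.49), and at 3M against 2W also Plin1 (3.02), Fabp4 (1.18), Retn (4.31) and Lipe (1.42). The 2 libraries of 3M differed, with Adipoq, the adiponectin gene, at 51.2 CPM in replicate 1 and 23.2 CPM in replicate 2, and Retn, which encodes resistin, at 17.6 and 5.06 CPM. In the same 2 libraries Itgax stood at 21.8 and 31.0 CPM, and Zbtb46, Flt3, Irf8, Sirpa and Siglech were also higher in replicate 2. Clec9a (4.33 and 2.82 CPM), Batf3 (1.56 and 1.08 CPM), Cd209a (3.43 and 2.82 CPM) and Irf4 (36.5 and 36.1 CPM) were higher in replicate 1. A relation between the 2 sets of genes was not tested.

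Neutrophil and monocyte genes had their highest sum at 6W, at 64.7 to 72.5 CPM, against 18.9 to 35.8 CPM at 2W and 10.3 to 21.2 CPM at 3M. None of the 10 was called by edgeR's test, and 5 of 10 had an unadjusted p under 0.05 at 3M against 6W (14.3% of all genes). S100a8, a calcium-binding protein gene of neutrophils, was at 14.1 and 8.83 CPM at 2W, 34.2 and 26.8 CPM at 6W and 2.47 and 8.15 CPM at 3M, with a log2 fold change of -2.49 (SE 0.50, edgeR adjusted p = 0.206) at 3M against 6W. Camp, the cathelicidin gene, had -3.21 (SE 0.66, edgeR adjusted p = 0.206) in the same comparison. Both 6W libraries lay above both 2W libraries in 8 of the 10 (28.0% of all genes), with Ly6g and Elane the exceptions. Both 3M libraries lay below both 6W libraries in 9 (23.3% of all genes), with Csf3r the exception. Ly6g had 1.39 and 2.33 CPM at 2W, 1.60 and 1.46 CPM at 6W and 0.962 and 0.941 CPM at 3M.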
